A study of Mus musculus with 4 samples.

Results

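Adhesion and junction genes were followed in embryonic mouse neocortex of day 16 of gestation, in which munc18-1 null mutants were set against normal mice. The set comprised cadherins, protocadherins, alpha and delta catenins, neural immunoglobulin adhesion molecules, contactins, neurexins, intercellular adhesion molecules, nectins, connexins and claudins. Members were taken by gene name. A probe counted when the platform annotation gave it a single symbol of these families, other than Cdh5, Gja1 and Cldn2, and when it had a value on 3 or more arrays. This gave 49 genes with 53 probes, out of 6041 genes and 6856 probes on the array. All 53 had a value on each of the 4 arrays.

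The 4 two-colour arrays each compared total RNA of another null embryo sample with a pool of 4 normal samples, and the labels call the null samples biological replicates. Both genotypes were on the C57BL/6 background, and the null allele is the only genetic difference the labels give. The null RNA carried the dye Cy3 on replicate 1 and Cy5 on replicates 2, 3 and 4. For replicate 1 the labels disagree on age, since 1 of them reads day 14 and the others day 16. The control pool counts as 1 sample, so that no test here includes the spread between normal embryos.

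The values, taken as log2, were ratios of the channels of an array, and they carry no level of a gene on its own. The labelled tissue could therefore not be checked against levels of its markers, and genes were not compared by abundance. Which channel was the numerator is not given in the sources used here. Signs are given as deposited, and a positive value gives no genotype direction. With the null RNA in Cy5 on each, replicates 2 to 4 have a common orientation, and they carried the tests. In bulk tissue, fewer cells of a type and less RNA per cell cannot be told apart.

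Munc18-1 binds the SNARE protein syntaxin and is needed for the release of transmitter, so that the brain of the null embryo is formed without synaptic transmission. Cadherins hold cells together through calcium-dependent binding, and their cytoplasmic tails reach the actin cytoskeleton through catenins. Immunoglobulin adhesion molecules such as NCAM and L1 guide the growth and bundling of axons. Neurexins and their partners align both sides of a synapse, connexins form gap junctions between cells, and claudins seal epithelia and the endothelium of the blood-brain barrier. The series title asks which genes are regulated by synaptic activity, and transcription driven by activity often runs through the factor CREB, which binds the cAMP response element.

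The stretches before the transcription start are shown for Cdh20 and Chl1, from the RefSeq promoter table of build GRCm38.p6. They are among the 4 members at an unadjusted p under 0.05 in limma. Of the others, Gjc1 had no entry in the promoter table. Pcdha6, the member with the smallest p, was left out by choice, as windows on its chromosome were not printed. Cldn7 is added because a window of this gene was the only one of a member with a full cAMP response element. All are the 250 bases before a start, on the plus strand, in lower case with the matches in capitals. They lie at chr1:104768270-104768519 for Cdh20, chr6:103510626-103510875 for Chl1 and chr11:69965171-69965420 for Cldn7, which had 2 windows.
Cdh20: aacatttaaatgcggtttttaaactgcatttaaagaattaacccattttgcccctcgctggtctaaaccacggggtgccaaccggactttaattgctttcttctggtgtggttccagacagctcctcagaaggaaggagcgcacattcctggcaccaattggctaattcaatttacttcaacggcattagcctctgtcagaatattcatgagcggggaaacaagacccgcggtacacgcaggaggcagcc
Chl1: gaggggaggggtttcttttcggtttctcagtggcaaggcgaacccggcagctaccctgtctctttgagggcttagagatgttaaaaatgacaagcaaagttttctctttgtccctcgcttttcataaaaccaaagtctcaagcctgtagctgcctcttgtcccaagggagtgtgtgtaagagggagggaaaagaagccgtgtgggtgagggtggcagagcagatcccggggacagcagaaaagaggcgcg
Cldn7: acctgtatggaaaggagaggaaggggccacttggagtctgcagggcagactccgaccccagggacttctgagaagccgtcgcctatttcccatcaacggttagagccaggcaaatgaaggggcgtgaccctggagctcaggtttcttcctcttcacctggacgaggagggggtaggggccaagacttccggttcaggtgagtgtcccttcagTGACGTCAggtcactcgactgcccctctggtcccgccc
The full element TGACGTCA, its core TGACG, the E-box CACGTG and the TATA box TATAAA were searched on both strands. The full element contains the core, so a window with the first also counts for the second. The table held 46 windows of 33 of the 49 genes. The full element was in 2.17% of them, against 1.55% of all 32841 windows of this length. The core was in 19.6% against 17.8%, the E-box in 0 of 46 windows against 6.02% of all, and the TATA box in 6.52% against 12.4%. The median GC content was 59.0% for the windows of members and 52.4% for all. Cdh20 and Chl1 held none of the 4 motifs. These are matches of letters, shown as a description, and the arrays did not measure binding.

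None of the 53 probes passed an adjusted p of 0.05 on replicates 2 to 4, where 0% of all 5720 probes tested passed with limma. At an unadjusted p under 0.05 stood 4 probes, all of them positive, or 7.55% of the members. Of all probes, 9.67% had such a p, with 5.61% positive and 4.06% negative. The members therefore did not exceed the array as a whole in this count. The 4 were Pcdha6, Gjc1, Chl1 and Cdh20, with means between 0.43 and 0.49, which is 1.34-fold to 1.40-fold in size. The smallest adjusted p of a member was 0.473 in limma. These counts leave out Cdh5, Gja1 and Cldn2, which the name rule excluded. Read by gene on replicates 2 to 4, their means were -0.41, -0.56 and 1.27. Each had an unadjusted p under 0.05 in limma, with adjusted p of 0.50, 0.46 and 0.43.

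Pcdha6, an isoform of the alpha protocadherin cluster, whose members give single neurons different surface identities, had log2 ratios of 0.58 on replicate 2, 0.34 on replicate 3 and 0.53 on replicate 4. All 3 were well above 0, and replicate 1 had 0.09. The mean of replicates 2 to 4 was 0.49 ± 0.13 (SD, n = 3), with a 95% interval of 0.13 to 0.84. Limma gave an unadjusted p of 0.0158 and an adjusted p of 0.473. Isoforms of this cluster share their last exons. Where the probe lies on the transcript is not known here, and the value may belong to several isoforms.

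Gjc1, a gap junction protein of the connexin family, had log2 ratios of 0.54, 0.58 and 0.28 on replicates 2, 3 and 4. The first and second lay close together and the third lower, while replicate 1 stood at -0.0011. The mean was 0.47 ± 0.17 (SD, n = 3), with a 95% interval of 0.10 to 0.83. Limma gave an unadjusted p of 0.0210 and an adjusted p of 0.473.

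Chl1, the close homolog of L1, which supports neurite growth and the placement of cortical neurons, had 0.48, 0.30 and 0.61. These were positive on each array of this orientation, and replicate 1, with the dyes the other way round, had -0.20. The mean was 0.46 ± 0.15 (SD, n = 3), with a 95% interval of 0.10 to 0.83. Limma gave an unadjusted p of 0.0207 and an adjusted p of 0.473.

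Cdh20, a type II cadherin of the developing nervous system, had 0.41, 0.62 and 0.25. Replicate 1 had 0.24 as deposited. The mean was 0.43 ± 0.18 (SD, n = 3), with a 95% interval of 0.06 to 0.80. Limma gave an unadjusted p of 0.0307 and an adjusted p of 0.481. With replicate 1 turned, the mean over 4 arrays was 0.26 for Cdh20, 0.34 for Pcdha6, 0.35 for Gjc1 and 0.40 for Chl1. The fit with a dye term gave 0.092 for Cdh20, 0.20 for Pcdha6, 0.23 for Gjc1 and 0.33 for Chl1. These are not means over arrays, since replicate 1 alone weighs as much there as replicates 2 to 4 together. Leaving out a replicate gave means of 0.33 to 0.51 for Cdh20 and 0.44 to 0.56 for Pcdha6. For Gjc1 they were 0.41 to 0.56 and for Chl1 0.39 to 0.54. The p of such a fit comes from fewer arrays. Without replicate 2, none of the 4 probes kept an unadjusted p under 0.05 in limma, which 4.09% of all probes then had. Without replicate 3, Chl1 and Pcdha6 kept it, where 9.5% of all probes had such a p, and without replicate 4, Cdh20 and Gjc1 did, where 10.9% had it.

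If the channels were divided in the same order on every array, whichever was the numerator, replicate 1 would have to be turned. With it turned, 6 members had an unadjusted p under 0.05 in limma over 4 arrays, all of them positive. Of all probes, 8.44% had such a p, or 5.29% on the positive side. The 6 were Icam2, Chl1, Cldn12, Cdh6, Icam5 and Gjc1. With replicate 1 as deposited, Cdh20 and Pcdha6 had such a p, or 2 of 53, against 7.12% of all probes, or 3.48% on the positive side. Neither assumed sign brought a member past the adjusted threshold, which 0% of all probes passed with replicate 1 turned and 0.0352% as deposited, with a smallest adjusted p in limma of 0.522 with replicate 1 turned and 0.663 as deposited. Gjc1 had a mean of 0.35 under either sign, since its value on replicate 1 was near 0.

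**Figure D1:**
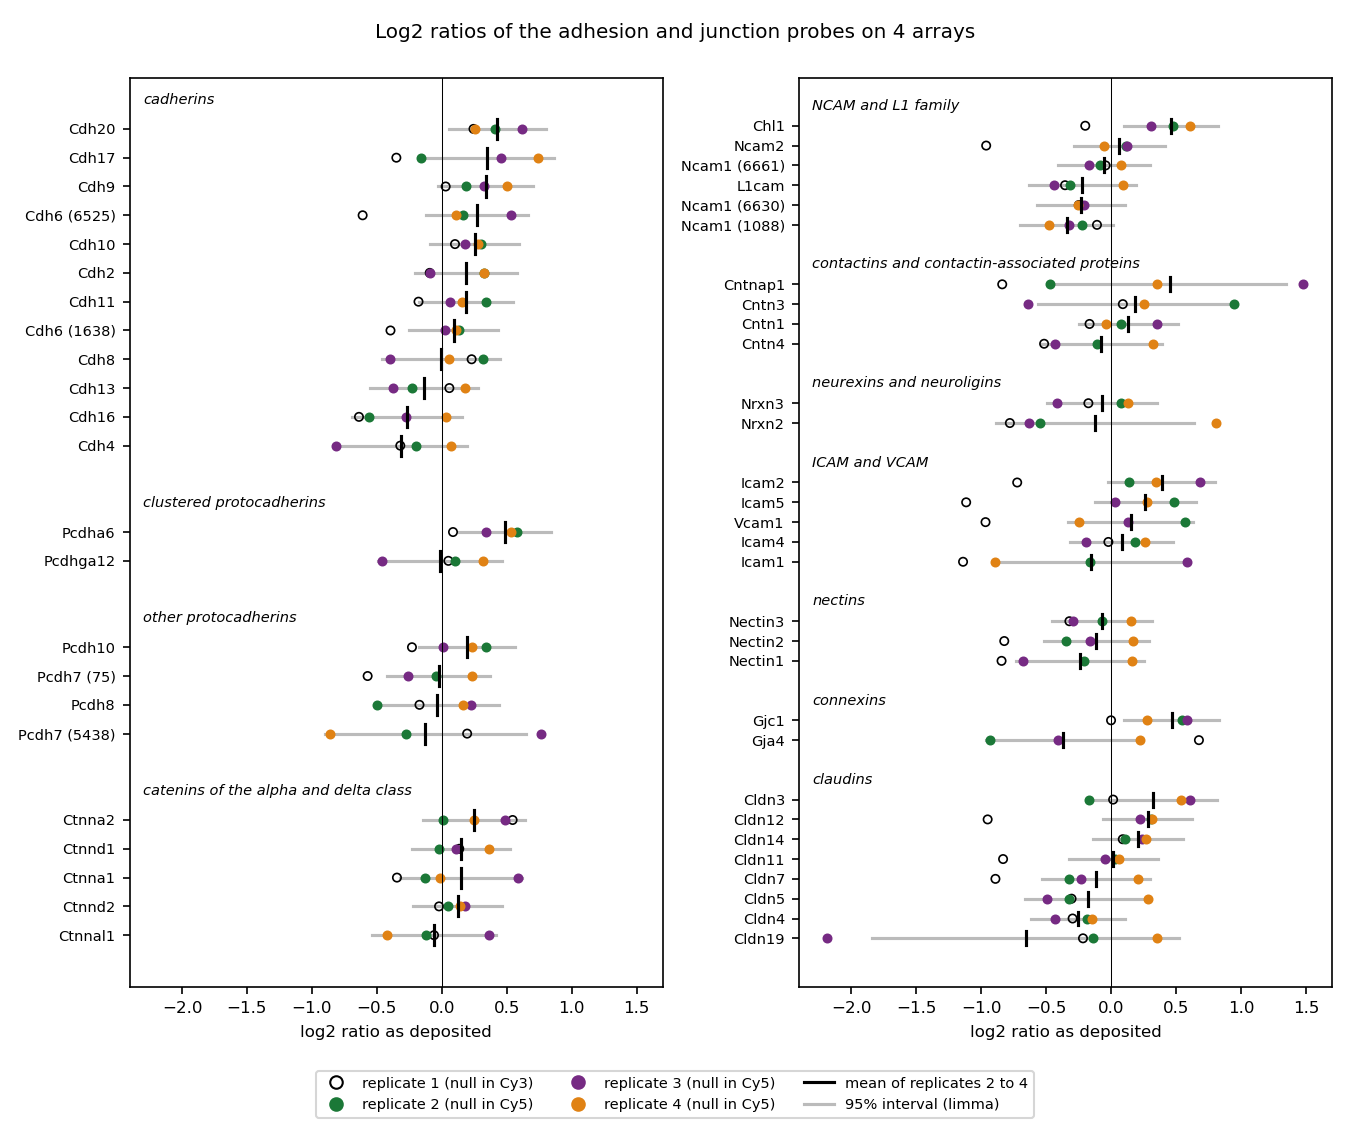
Log2 ratios as deposited (horizontal axis) of the 53 adhesion and junction probes, grouped by family. Points are the 4 arrays, with replicate 1 as open circles, black bars are means of replicates 2 to 4 and grey lines are 95% intervals from limma. The intervals of Pcdha6, Gjc1, Chl1 and Cdh20 lie above 0, and the widest are those of Cldn19 and Cntnap1.

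The signs of the members were uneven. On each of replicates 2 to 4, 16 of the 53 probes were positive, or 30.2%, against 16.3% of all probes. Only 3 probes were negative on each, or 5.66%, against 17.3% of all. The probes positive throughout were Cdh6 (both probes), Cdh9, Cdh10, Cdh11, Cdh20, Pcdha6, Pcdh10, Ctnna2, Ctnnd2, Chl1, Icam2, Icam5, Gjc1, Cldn12 and Cldn14. Those negative throughout were Cldn4 and a pair of the Ncam1 probes. A single sign on the 3 arrays was seen for 35.8% of members and 33.5% of all probes. Only 10 of the 53 probes were negative on replicate 4, so no more than 10 could be negative on all 3 arrays. On replicates 2 and 3, 49.1% and 52.8% of members were positive, against 45.9% and 49.7% of all probes. Because the arrays share the pool and the dye orientation, the split between positive and negative probes was not tested.

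The arrays differed in how the members lay. On replicate 4, 43 of the 53 probes were positive, or 81.1%, against 50.7% of all probes, and their median was 0.21 against 0.0044 for all probes. On replicate 1, 39 of 53 were negative, against 49.8% of all, and the median was -0.22 against 0.0017. On replicates 2 and 3 the medians were -0.019 and 0.028, with 26 and 28 positive probes, against 45.9% and 49.7% of all. The members as a set were therefore displaced on replicates 1 and 4, in opposite directions as deposited, and near the array median on the other two. The means over replicates 2 to 4 were positive for 28 of 53, or 52.8%, against 47.4% of all probes, and their median was 0.061 against -0.016.

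**Figure D2:**
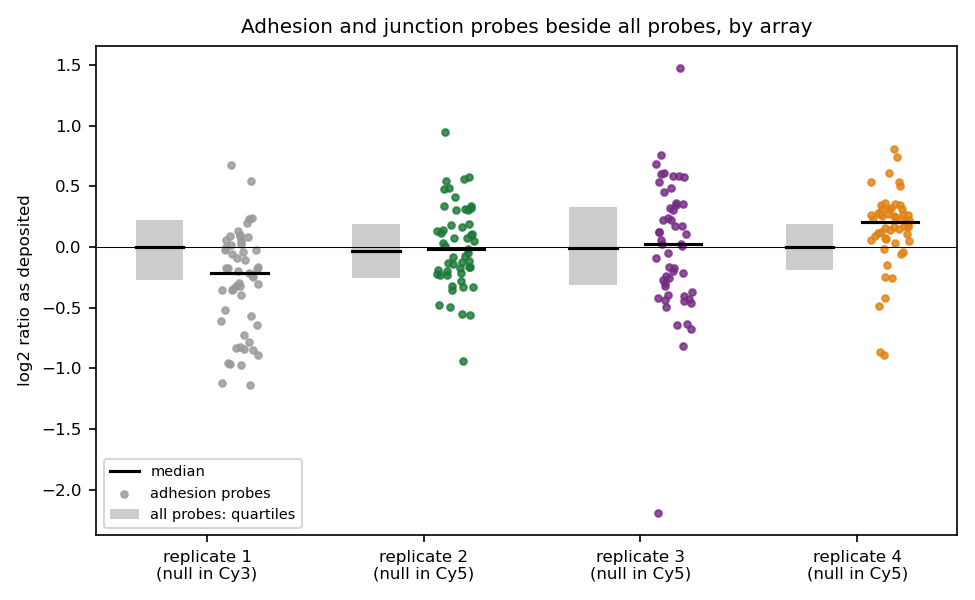
Log2 ratios as deposited (vertical axis) on each array. Points are the 53 adhesion and junction probes and grey boxes the quartiles of all probes with a value, with black bars at the medians. The member median is -0.22 on replicate 1 and 0.21 on replicate 4, and lies between -0.019 and 0.028 on the other arrays.

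The cadherins held 12 probes of 11 genes, with 8 positive means and a median of 0.19. Type II cadherins, which sort neurons into pools and layers, made up most of these positive values. The split by type was chosen after the values were seen and has no test. Of 7 type II probes of 6 genes, 6 were positive on each of replicates 2 to 4, against 16.3% of all probes and 30.2% of members. Both Cdh6 probes are among them. The median of the 7 means was 0.25. On replicate 1, with the dyes the other way round, 3 of the 7 were negative, and the median was 0.03. Among type II cadherins, the highest mean after Cdh20 was that of Cdh9, a cadherin of specific hippocampal synapses, with 0.19, 0.32 and 0.50 and a mean of 0.34 ± 0.16 (SD, n = 3). Cdh10 had close values of 0.30, 0.18 and 0.28, with 0.10 on replicate 1. Cdh11, found in mesenchyme as well as in brain, had 0.34, 0.06 and 0.16, and -0.18 on replicate 1. Cdh8, which marks cortical areas and layers, was the exception, with 0.32, -0.40 and 0.05.

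The type I cadherins and the remaining ones showed no shared sign. Cdh2, the N-cadherin of neural progenitors and synapses, had 0.33 and 0.32 on replicates 2 and 4 but -0.09 on replicate 3. Cdh4, the R-cadherin, had -0.20, -0.81 and 0.07, so that its mean of -0.31 ± 0.45 (SD, n = 3) rested on replicate 3. Cdh13, which has a lipid anchor in place of a cytoplasmic tail, had a mean of -0.14 ± 0.29. Cdh16 and Cdh17, known from kidney and gut, had means of -0.27 ± 0.30 and 0.35 ± 0.46. On replicate 4 all 12 cadherin probes were positive, against 50.7% of all probes. On replicate 1, 7 of 12 were negative, against 49.8% of all probes.

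The other protocadherins did not move together. The gamma isoform Pcdhga12 had 0.10, -0.46 and 0.31, in contrast to Pcdha6, and its mean was -0.015 with a 95% interval of -0.49 to 0.46. Among protocadherins outside the clusters, Pcdh10, which takes part in axon growth and synapse elimination, had the smallest p, with 0.34, 0.0087 and 0.23 and -0.23 on replicate 1. Its mean was 0.19 ± 0.17 (SD, n = 3). Pcdh8, also called arcadlin, an activity-induced protocadherin that binds N-cadherin, had -0.50, 0.22 and 0.16, with replicate 2 on the other side of 0 from replicates 3 and 4. Its 95% interval of -0.51 to 0.44 reaches to both sides of 0.

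The catenins had means between -0.06 and 0.25. Ctnna2, the neuronal alpha catenin, had 0.013, 0.48 and 0.25, and 0.55 on replicate 1. Its mean was 0.25 ± 0.24 (SD, n = 3). Ctnnd2, the delta catenin of neuronal dendrites, had among the closest values of the set, at 0.05, 0.18 and 0.14. Ctnna1 and Ctnnd1, the widely expressed alpha and p120 catenins, each had a mean of 0.15, which for Ctnna1 rested on 0.59 on replicate 3. Ctnnal1, a relative of alpha catenin, had -0.12, 0.36 and -0.42. Of the 5 catenins, 4 had positive means, and none had an unadjusted p under 0.05. A second Ctnnd1 probe had a value on replicate 4 alone, at -0.022, and fell outside the set.

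Within the NCAM and L1 family, Chl1 stood apart from its relatives. Ncam1, the neural cell adhesion molecule, was measured by 3 probes with negative means of -0.34 ± 0.13, -0.23 ± 0.02 and -0.06 ± 0.12 (SD, n = 3). The probe furthest below 0 had -0.23, -0.32 and -0.48, with -0.11 on replicate 1 and an unadjusted p of 0.0558 in limma. The middle probe had -0.23, -0.21 and -0.26, and -0.25 on replicate 1, which made it the most even member as deposited. The last had values on both sides of 0. L1cam, the axonal L1 protein, had -0.32 and -0.44 on replicates 2 and 3 and 0.09 on replicate 4. Ncam2 had 0.12, 0.13 and -0.06, beside -0.96 on replicate 1. All 6 probes of the family were negative on replicate 1, against 49.8% of all probes.

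Cdh6 and Pcdh7 were measured by 2 probes each, and these differed in spread. The Cdh6 probes were positive on replicates 2 to 4, with means of 0.27 ± 0.23 and 0.09 ± 0.06 (SD, n = 3), and negative on replicate 1, at -0.61 and -0.40. The higher of them rested on 0.54 on replicate 3. The Pcdh7 probes had means of -0.13 ± 0.82 and -0.02 ± 0.24. On replicate 3 one had 0.76 and the other -0.26, and on replicate 4 they stood at -0.86 and 0.23. The pair of Pcdh7 probes thus had opposite signs on replicates 1, 3 and 4, and whether they cover different transcripts is not given in the sources used here.

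**Figure D3:**
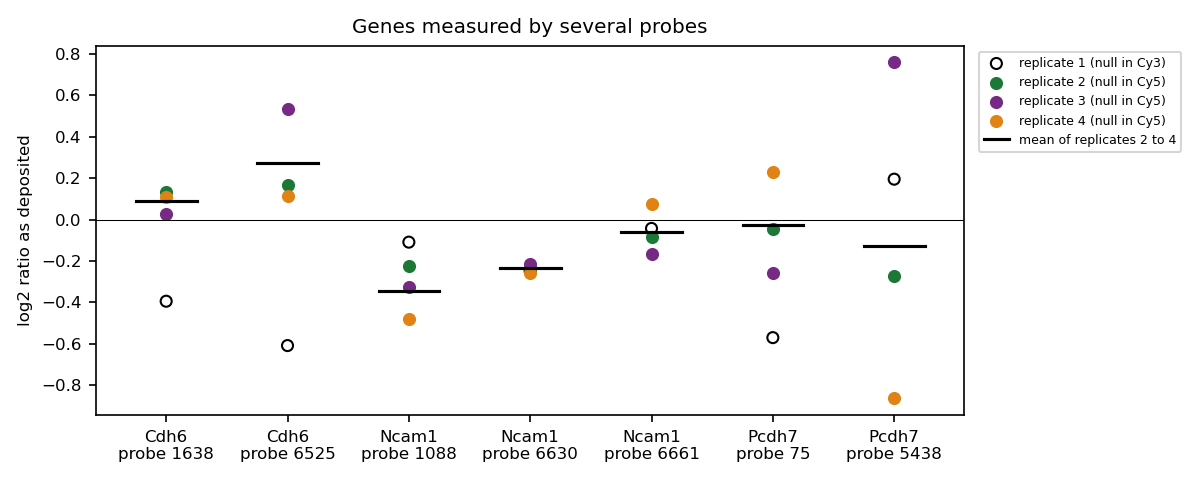
Log2 ratios as deposited (vertical axis) of the probes of Cdh6, Ncam1 and Pcdh7. Points are the 4 arrays, with replicate 1 as open circles, and black bars are means of replicates 2 to 4. The 3 Ncam1 means are -0.34, -0.23 and -0.06, and the Pcdh7 probes differ in sign on replicates 1, 3 and 4.

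Among contactins, neurexins and their relatives, Cntnap1, Cntn3 and Nrxn2 differed widely between arrays. Cntnap1, the Caspr protein of the junction between axon and myelin, had -0.47, 1.48 and 0.35, and -0.84 on replicate 1. Its mean of 0.45 ± 0.98 (SD, n = 3) rested on replicate 3, and without that array it was -0.061. Cntn3 had 0.95, -0.64 and 0.25, with the largest positive value of any member on replicate 2. Cntn1, the contactin that pairs with Cntnap1, had a mean of 0.13 ± 0.20, and Cntn4 had -0.07 ± 0.38. Nrxn2, a presynaptic receptor for neuroligins, had -0.55 and -0.63 on replicates 2 and 3, but 0.81 on replicate 4. Nrxn3 had 0.07, -0.42 and 0.13, with a mean of -0.07 ± 0.30. Neuroligin genes fell under the name rule, but no probe had a neuroligin as its single symbol.

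Intercellular adhesion molecules other than Icam4 had low values on replicate 1. Icam2, an adhesion ligand of endothelium and leukocytes, had 0.14, 0.68 and 0.34, against -0.72 on replicate 1. Its mean was 0.39 ± 0.27 (SD, n = 3), with an unadjusted p of 0.0593 in limma. Icam5, also called telencephalin, which sits on the dendrites of telencephalic neurons, had 0.48, 0.03 and 0.28, and -1.12 on replicate 1. Icam1 had -0.16, 0.59 and -0.89, and -1.14 on replicate 1, the lowest value of any member there. Vcam1 had 0.57, 0.13 and -0.25, and -0.97 on replicate 1. Icam4, the red cell member, had -0.022 on replicate 1 and a mean of 0.08 ± 0.24.

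The 3 nectins, which start adherens junctions and link axons to dendrites, all had negative means, at -0.24 ± 0.42 for Nectin1, -0.11 ± 0.26 for Nectin2 and -0.07 ± 0.22 for Nectin3 (SD, n = 3). Nectin1 had -0.21, -0.68 and 0.16, and -0.84 on replicate 1. Each nectin was negative on replicates 1, 2 and 3 and positive on replicate 4, where the values were 0.15 to 0.17. On replicate 1, 10 of the 53 members lay below -0.8, against 4.63% of all probes. They were Icam1, Icam5, Vcam1, Nectin1, Nectin2, Ncam2, Cntnap1, Cldn7, Cldn11 and Cldn12.

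**Figure D4:**
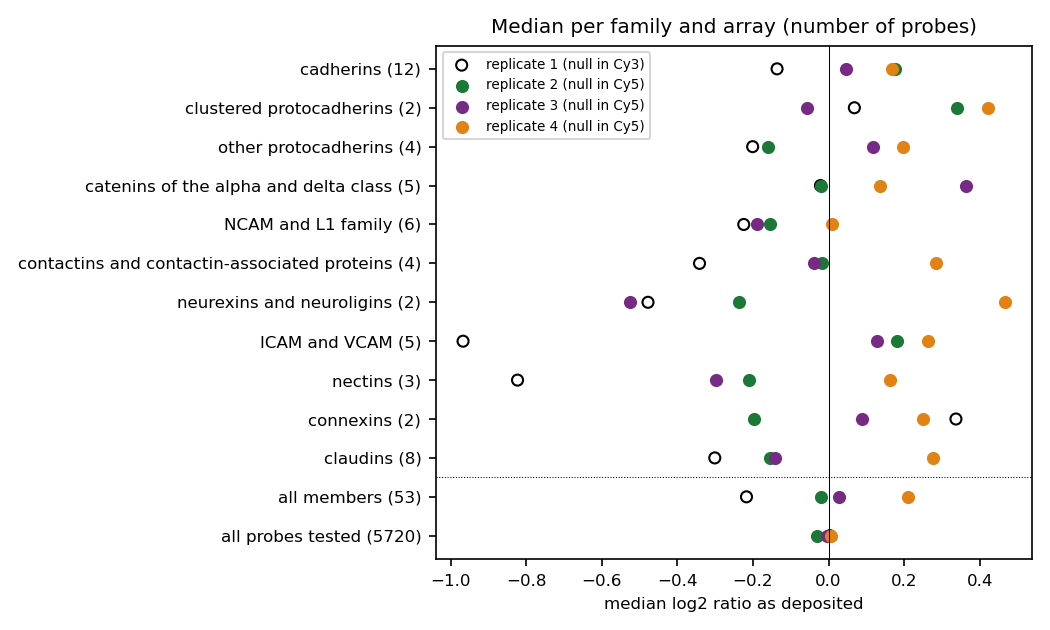
Median log2 ratio as deposited (horizontal axis) of each family on each array, with the number of probes in brackets and replicate 1 as open circles. The ICAM and VCAM median is -0.97 and the nectin median -0.82 on replicate 1, whereas every family median on replicate 4 is above 0.

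Junction proteins spread to both sides of 0. Gja4, a connexin of arterial endothelium, had -0.94, -0.41 and 0.22, and 0.68 on replicate 1, opposite in sign to Gjc1 on replicates 2 and 3. The 8 claudins had 4 positive and 4 negative means and a median of -0.051. Cldn12 had the smallest p of them, with the close values 0.31, 0.22 and 0.32, against -0.95 on replicate 1. Its mean on replicates 2 to 4 was 0.28 ± 0.05 (SD, n = 3), with an unadjusted p of 0.0894. With replicate 1 turned, the mean over 4 arrays was 0.45 ± 0.34 (SD, n = 4), and with it as deposited -0.03 ± 0.62.

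Cldn5, the main claudin of the blood-brain barrier, had -0.33, -0.49 and 0.28. Cldn11, which seals myelin, had 0.03, -0.05 and 0.06, among the values nearest to 0, but -0.83 on replicate 1. Cldn4 was negative on all 4 arrays as deposited, at -0.30, -0.19, -0.43 and -0.14. Cldn14 was positive on all 4, at 0.09, 0.11, 0.24 and 0.27. Cldn3 and Cldn7 had means of 0.32 ± 0.43 and -0.12 ± 0.29 (SD, n = 3). Cldn19 had the largest mean in size of any member, -0.66 ± 1.35, which rested on -2.19 on replicate 3 beside -0.14 and 0.35.

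Precision set what could be seen. The 95% interval of the median member spanned 0.40 above and below the mean, a factor of 1.32. For 51 of the 53 probes the interval lay inside 2-fold either way, and the exceptions were Cldn19 and Cntnap1. These intervals hold neither the spread between normal embryos nor an effect of the shared dye orientation. They therefore do not bound the differences between genotypes. The median SD over replicates 2 to 4 was 0.24 for members and 0.27 for all probes. Only Cldn19 had a mean beyond 0.5 in size, or 1 of 53, against 8.72% of all probes.

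The families were covered in part. Of 69 probes matching by name, 15 had no value on any array, or 21.7%, against 14.3% of all probes, and 1 had a value on a single array. These 15 probes stood for Cdh1, Cdh3, Cdh15, Cdh18, Pcdh12, Cntn6, Cldn1, Cldn6, Cldn10, Cldn15 and the connexins Gja10, Gjb1, Gjb2, Gjb6 and Gjd2. With 5 of 7 genes, the connexins lost the largest share of a family. Why a probe had no value is not given in the sources used here.

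Related genes outside the set were read by gene from 4 lists of synaptic organisers, other immunoglobulin adhesion molecules, atypical cadherins and cytoplasmic partners. Of 165 listed, 72 were measured, with 37 positive and 35 negative means and a median of 0.0035, against -0.015 over all genes. At an unadjusted p under 0.05 in limma, 3 were positive and 3 negative, and 0 passed the adjusted threshold, as did 0% of all. Over all genes and unnamed probes, 5.62% were positive and 4.07% negative at that p. The positive ones were Ptprd, a receptor phosphatase that organises synapses, at 0.39 ± 0.18, Epb41l2, a band 4.1 protein that ties receptors to the cytoskeleton, at 0.47 ± 0.17, and the desmosome protein Pkp3 at 0.44 ± 0.27 (SD, n = 3). The negative ones were Efnb3, an ephrin, at -0.63 ± 0.54, Tjp3, a tight junction scaffold, at -0.48 ± 0.38, and Vasp, an actin regulator at adhesion sites, at -0.56 ± 0.19. Each list had a negative median on replicate 1, from -0.24 to -0.03, and a positive one on replicate 4, from 0.05 to 0.31.

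Several members are also expressed by cells other than neurons, so lists of markers were read beside them. Cldn5, Cdh11, Cldn3 and Cldn11 are members and stand in these lists as well. Of 14 measured vessel genes of 24 listed, 10 had negative means, with list medians of -0.31, -0.35 and -0.26 on replicates 2 to 4 and -0.14 on replicate 1. Of these, 5 had an unadjusted p under 0.05 in limma, all negative, against 4.07% of all genes on that side, among them Cdh5, the endothelial cadherin, at -0.41 ± 0.24 (SD, n = 3). The endothelial member Cldn5 is itself counted in that list. Gja4, outside the list, also had a negative mean, while those of Icam2 and Vcam1 were positive. On replicate 4 Cldn5 and Gja4 were positive, at 0.28 and 0.22. Microglia and leukocyte markers had positive means in 10 of 13 measured genes of 20 listed, with medians of 0.22, 0.30 and 0.28, and -0.06 on replicate 1. At that p stood 5 of them, all positive, against 5.62% of all genes on that side. Meningeal and mesenchymal markers had negative means in 9 of 14 of 22 listed, with medians of -0.22, -0.10 and -0.10, and -0.17 on replicate 1, and 3 were at that p, all negative. The part of these cells in the values of Icam2, Vcam1, Gja4, Cldn5 and Cdh11 was not tested.

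Neuronal markers had a median of -0.07 with 6 of 19 positive of 25 listed, astrocyte and radial glia markers -0.06 with 6 of 15 of 20, and oligodendrocyte lineage markers -0.05 with 4 of 8 of 16. Blood markers had a median of -0.03 with 3 of 7 of 18, and choroid plexus markers, which include Cldn3 and Cldn2, 0.19 with 4 of 6 of 16. At an unadjusted p under 0.05 in limma stood 2 neuronal markers, 3 of astrocytes and radial glia, 0 of the oligodendrocyte lineage, 3 of blood and 3 of choroid plexus, with both signs in each list that had any, against 9.69% of all genes. On replicate 4, where the members had a median of 0.21, neuronal markers had -0.12 and astrocyte and radial glia markers -0.12. On replicate 1, where the members had -0.22, they had 0.03 and -0.10. No list held a gene past the adjusted threshold in limma, as did 0% of all genes.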

How the data were processed

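Values were read from the authors' deposited table of log ratios, 1 column per array, treated as log2 values since their size would be too large for log10. The steps behind them, the log base and the numerator were not stated in the labels. No column was left unused, and scanner signals were not used here. The platform annotation gave a single symbol for 6269 of 6856 probes, several for 6 and none for 581. The Entrez IDs of all 53 members were in the RefSeq table of GRCm38.p6, with 0 symbols changed.

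Means of replicates 2 to 4 were tested against 0 with limma 3.58.1 (lmFit, eBayes; R 4.3.3) on 5720 probes with a value on each, two-sided, with Benjamini-Hochberg adjustment over all of them and a threshold of 0.05. Lists were read after averaging probes by gene. In simulated data for this comparison (5720 probes, 20 rounds of 200 changes), the test found 54.4% of the 2-fold and 96.1% of the 4-fold changes, with 4.48% false calls. The simulated noise was independent between arrays. It left out the pool and the dye orientation that the real arrays share, so these rates cannot be carried over to differences between genotypes.

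Values on every array are given for members at an unadjusted p under 0.05 and for the smallest p of each family, and for others that were chosen after their values were seen. Members, lists and motifs were chosen with earlier results of these data known. Alternatives covered array weights, a robust prior, a dye term, either sign of replicate 1, centred or scaled arrays, gene averages, incomplete or extreme probes, a threshold of 0.1 and the omission of each replicate. The number of arrays limits the precision.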

Additional observations from a re-analysis of the deposited data

Results flagged for a closer look

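With 4 arrays, a value was singled out when its gap to the nearest other array exceeded the 95% critical value of Dixon's test for the share of the whole range, which chance gives in about 1 of 20 groups. Among 53 probes this held for 4 with replicate 1 as deposited and for 4 with it turned. The rule was run on the members alone, so whether these counts differ from the array as a whole is not known. The rate of 1 in 20 also takes the 4 arrays as alike, whereas replicate 1 had the other dye orientation. Cldn11, with -0.83 on replicate 1, and Cldn12, with -0.95 on replicate 1, were singled out under either sign. As deposited, Ncam2 had -0.96 on replicate 1 and Nrxn2 had 0.81 on replicate 4, apart from the remaining arrays. With replicate 1 turned, an Ncam1 probe (ID 6630) had replicate 1, at -0.25 as deposited, apart from the others, and Pcdh8 had -0.50 on replicate 2. The cause was not tested.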

How the results depend on the processing

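No member passed the adjusted threshold under any alternative run, including an adjusted p of 0.1. Of all probes, 3 of 5720 passed 0.05 with array weights and 1 of 5720 with a robust prior. With a dye term 1 of 5687 passed, and with replicate 1 as deposited 2 of 5687. Under the other alternatives 0 passed 0.05, and the count of all probes at 0.1 is not given here. The median log ratio of the members was 0.061. Under each alternative run for it, the median moved by less than the SD of the member medians of replicates 2 to 4, 0.121. That SD is wider than the median itself, so a change of sign can fall within it. The median was -0.046 with replicate 1 as deposited, which reversed its sign, and 0.12 with replicate 1 turned. Leaving out a replicate gave 0.033 to 0.11. The number of members at an unadjusted p under 0.05, which was 4 on replicates 2 to 4, was 2 with replicate 1 as deposited, 7 with a dye term (6.73% of all probes) and 8 with array weights, of which 6 were positive (18.7% of all probes). Leaving out a replicate gave 1 to 4 such members, with 1, Cntnap1, without replicate 2, where 4.09% of all probes had such a p. Not all of these were positive. Without replicate 3, 3 were positive and 1 negative, where 9.5% of all probes had such a p. Without replicate 4, 2 were positive and 2 negative, where 10.9% of all probes had it. With array weights the 4 named members were among the 8, and with a dye term none of them was among the 7. Among members named for the smallest p of their family, Nectin1 took the other sign with replicate 1 turned, at 0.031, and with a dye term, at 0.30. Cldn12 had -0.026 with replicate 1 as deposited, and Ctnna2 had -0.15 with a dye term. Nrxn3 had 0.051 with a dye term and 0.023 with array weights, and Cntnap1 had -0.052 with array weights. Leaving out a replicate gave -0.061 to 0.92 for Cntnap1, with the lowest value without replicate 3, and -0.17 to 0.10 for Nrxn3, with the highest without replicate 3. The cause was not tested. Array weights were 2.53, 0.478 and 0.827 for replicates 2, 3 and 4, so that fit rests mostly on replicate 2. Other background corrections and signal filters were not run, as scanner signals were not used here. No paired analysis was possible because each array is already a ratio against the pool. Signal over background is unknown, and in the simulated data only 54.4% of 2-fold changes passed the adjusted threshold.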
